A study of Mus musculus with 6 samples.

Results

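Prothymosin α, parathymosin and the high mobility group (HMG) proteins are small, abundant and highly charged proteins of chromatin. Among their mouse genes, 10 (Ptma, Ptms, Hmgb1, Hmgb2, Hmgb3, Hmgn1, Hmgn2, Hmgn3, Hmga1 and Hmga2) are described here in 4T1 cells. The genes were matched by symbol in a table of 22401 rows, and all 10 were found and passed the filter on low counts, which left 12288 genes for testing. The set was chosen from the measured response to P3FI-90 in these same libraries, so its changes are given as a description, with no test read from them. 4T1 is a mouse mammary gland epithelial cancer cell line that serves as a model of triple–negative breast cancer, and P3FI-90 is the compound the study used to inhibit the lysine demethylase KDM3B. RNA–seq libraries were made from cells kept for 24 h with the vehicle DMSO or with 10 µM P3FI-90, 3 libraries per group, at a single dose and time. The labels number the replicates but do not say whether they came from separate cultures. The errors below therefore rest on the spread between these libraries, which may be technical.

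As background, the members act on chromatin by different routes. Prothymosin α and parathymosin are acidic, largely unfolded nuclear proteins that bind histones, with prothymosin α best known for binding linker histone H1 and for its high level in dividing cells. HMGB proteins bend DNA through their HMG boxes and end in an acidic tail, and HMGB1 also acts as an alarm signal once it leaves the cell. HMGN proteins bind the nucleosome itself and compete with linker histone, whereas HMGA proteins hold the minor groove of AT-rich DNA through AT hooks and are typical of embryonic and tumor cells.

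The shared feature of the prothymosins and the HMGB proteins can be read in their coding sequences. The longest uninterrupted run of acidic codons (GAA, GAG, GAT or GAC) in each is shown 5′ to 3′ as annotated in GENCODE M21, which is built on GRCm38, with the run in capitals and up to 2 flanking codons on each side in lower case.
Ptma: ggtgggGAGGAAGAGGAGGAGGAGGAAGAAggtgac
Ptms: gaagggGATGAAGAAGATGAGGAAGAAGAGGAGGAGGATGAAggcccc
Hmgb1: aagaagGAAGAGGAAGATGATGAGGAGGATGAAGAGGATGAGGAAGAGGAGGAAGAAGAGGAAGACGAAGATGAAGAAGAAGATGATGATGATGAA
Hmgb2: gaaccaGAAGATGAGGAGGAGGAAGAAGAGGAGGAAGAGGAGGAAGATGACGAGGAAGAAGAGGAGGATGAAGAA
Hmgb3: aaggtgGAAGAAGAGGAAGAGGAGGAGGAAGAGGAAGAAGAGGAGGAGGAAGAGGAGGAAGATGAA
The runs measured 30 codons in Hmgb1, 23 in Hmgb2 and 20 in Hmgb3, and in all 3 genes the run reached the last codon before the stop. In Ptma and Ptms the longest runs were shorter, at 8 and 12 codons, and lay inside the coding sequence. Acidic codons nevertheless made up 47.7% of the 111 codons of Ptma and 45.5% of the 101 codons of Ptms, against 26.0%, 23.3% and 22.0% in Hmgb1, Hmgb2 and Hmgb3. In the HMGN and HMGA genes this share was between 11.1% in Hmga2 and 18.2% in Hmgn3, and no run was longer than the 4 codons of Hmga1.

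Ptma (ENSMUSG00000026238) was by far the most abundant member and the one that differed most. Its normalized counts, that is, counts corrected for the effective size of each library, were 101881, 103013 and 99180 in the DMSO libraries and 15928, 15788 and 15158 in the P3FI-90 libraries. The groups were far apart, and the coefficient of variation was 1.94% under DMSO and 2.63% under P3FI-90. The means were 101358 ± 1969 (SD, n = 3) and 15624.5 ± 410 (SD, n = 3), so that 15.4% of the DMSO level was left, a 6.49-fold difference and a log2 fold change of −2.70 (SE 0.029). Ptma held rank 14 of the 12288 tested genes by its DMSO level and rank 5 by the size of its drop in normalized counts, and 74 tested genes had a lower log2 fold change. This one gene took 0.268% ± 0.0052 (SD, n = 3) of all counts on named genes under DMSO and 0.0480% ± 0.0012 (SD, n = 3) under P3FI-90.

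Ptms (ENSMUSG00000030122), which encodes parathymosin, the closest relative of prothymosin α, stood at 5580, 4850 and 5227 normalized counts under DMSO and at 1812, 2044 and 2144 under P3FI-90. Every treated library lay below every control library, with means of 5219 ± 365 and 2000 ± 171 (SD, n = 3 each) and a log2 fold change of −1.38 (SE 0.064). The coding sequences of both genes were 69.6% identical over 299 aligned bases. Because Ptma differed more than Ptms, the Ptms share of the pair, counted per kilobase of transcript, was 5.17% ± 0.38 under DMSO and 11.9% ± 1.1 under P3FI-90 (SD, n = 3 each).

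**Figure D1:**
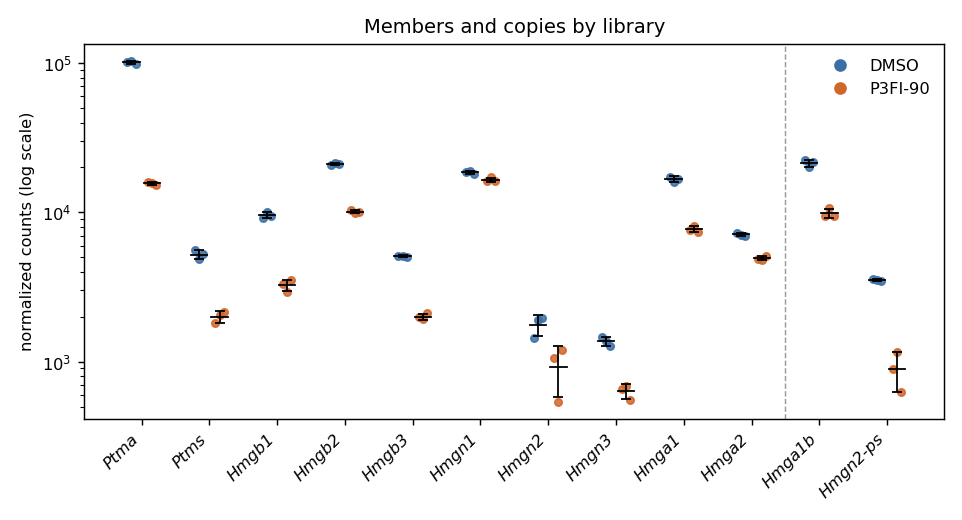
Normalized counts on a log axis for each of the 10 members and, right of the dashed line, for 2 copies of members, with 3 DMSO libraries (blue) and 3 P3FI-90 libraries (orange) per gene and bars for the mean and SD. Under this scaling the groups do not overlap for any member, Ptma shows the widest gap, Hmgn1 the narrowest, and Hmgn2 the widest spread within groups.

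All 3 HMGB genes were lower under P3FI-90. Hmgb1 (ENSMUSG00000066551), which encodes the chromatin protein that doubles as an extracellular alarm signal, was at 9183, 10014 and 9500 normalized counts under DMSO and at 3311, 2950 and 3510 under P3FI-90. The means were 9565 ± 420 and 3257 ± 284 (SD, n = 3 each), and among the members only Ptma had a lower log2 fold change than the −1.55 (SE 0.056) of Hmgb1. Hmgb2 (ENSMUSG00000054717), a paralog known for its high level in cycling cells, was at 20698, 21363 and 20965 under DMSO and at 10323, 9910 and 10051 under P3FI-90. Its means were 21008 ± 335 and 10095 ± 210 (SD, n = 3 each), with a log2 fold change of −1.06 (SE 0.031). Hmgb3 (ENSMUSG00000015217), a paralog best known from embryonic and blood-forming cells, was at 5141, 5110 and 5000 under DMSO and at 1979, 1929 and 2112 under P3FI-90. The log2 fold change was −1.34 (SE 0.045), with means of 5084 ± 74 and 2007 ± 95 (SD, n = 3 each).

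Hmgb2 thus kept the largest part of its level among the 3 paralogs and gained weight in the family. Counted per kilobase of transcript, its share of the HMGB total was 56.0%, 55.7% and 56.2% in the DMSO libraries and 63.0%, 63.7% and 61.0% in the P3FI-90 libraries. Over the same libraries the share of Hmgb1 went from 23.6% ± 0.59 to 18.7% ± 1.1 and that of Hmgb3 from 20.4% ± 0.48 to 18.7% ± 0.55 (SD, n = 3 each).

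The upstream sequences of the HMGB genes share a letter pattern that the selection did not use. The 250 bases before an annotated start of each gene are shown from the RefSeq promoter table (GRCm38.p6), on the strand of the gene, with matches to CCAAT or CACGTG on either strand in capitals. The positions are chr5:149053058-149053307 (−) for Hmgb1, chr8:57511593-57511842 (+) for Hmgb2 and chrX:71555667-71555916 (+) for Hmgb3.
Hmgb1: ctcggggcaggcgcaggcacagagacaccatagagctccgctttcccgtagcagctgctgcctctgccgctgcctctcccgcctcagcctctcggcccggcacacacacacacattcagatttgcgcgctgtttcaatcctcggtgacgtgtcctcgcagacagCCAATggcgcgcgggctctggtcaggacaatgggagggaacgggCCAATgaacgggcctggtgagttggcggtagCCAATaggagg
Hmgb2: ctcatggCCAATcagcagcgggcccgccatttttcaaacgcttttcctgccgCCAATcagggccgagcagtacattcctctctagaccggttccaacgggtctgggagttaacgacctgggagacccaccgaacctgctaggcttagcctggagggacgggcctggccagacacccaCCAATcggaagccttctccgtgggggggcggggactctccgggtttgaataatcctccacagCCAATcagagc
Hmgb3: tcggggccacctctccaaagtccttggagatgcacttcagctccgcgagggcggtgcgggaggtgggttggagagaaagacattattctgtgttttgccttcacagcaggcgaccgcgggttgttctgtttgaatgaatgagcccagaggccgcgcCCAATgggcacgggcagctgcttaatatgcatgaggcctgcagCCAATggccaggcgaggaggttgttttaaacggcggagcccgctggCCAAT
CCAAT occurred 3 times upstream of Hmgb1, 4 times upstream of Hmgb2 and 3 times upstream of Hmgb3. Of the 32851 promoter windows of the table, each 300 bases long with 50 bases after the start, 37.4% held CCAAT at least once on either strand and 3.37% held it 3 times or more. A second annotated start of Hmgb1 had no CCAAT and 1 CACGTG, a pattern found in 7.15% of all windows.

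Among the other members with a window, CCAAT was found 2 times for Hmgn1 and 1 time for Hmgn2, which also held 1 CACGTG, and it was absent from the windows of Ptma, Ptms, Hmga1 and Hmga2. A relation between CCAAT and the size of the difference was not tested. GCGGGAAA and TTTGGCGC, which occurred in 1.07% and 0.514% of all windows, were found in no member window. The table had windows for 9 of the 10 members, without Hmgn3. Such matches describe letters in a window and not binding.

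The HMGN genes differed in unequal measure. Hmgn1 (ENSMUSG00000040681), encoding a nucleosome-binding protein, was at 18739, 18882 and 18078 normalized counts under DMSO and at 16353, 17138 and 16193 under P3FI-90. The groups did not overlap but lay close together, with means of 18566 ± 429 and 16561 ± 506 (SD, n = 3 each) and a log2 fold change of −0.16 (SE 0.033). Scaled by total counts instead of by TMM (trimmed mean of M values), the log2 fold change of Hmgn1 was 0.049, so its direction depends on the scaling. Hmgn3 (ENSMUSG00000066456), a family member known for tissue-restricted levels, was at 1467, 1372 and 1263 under DMSO and at 660, 688 and 555 under P3FI-90. This was a drop from 1368 ± 102 to 634 ± 70 (SD, n = 3 each), with a log2 fold change of −1.11 (SE 0.086).

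Hmgn2 (ENSMUSG00000003038) varied more between libraries than any other member. Its normalized counts were 1437, 1903 and 1971 under DMSO and 1055, 538 and 1189 under P3FI-90, a coefficient of variation of 16.4% and 37.1%. The means were 1770 ± 291 and 927 ± 344 (SD, n = 3 each), with a log2 fold change of −0.93 (SE 0.20). Without the second P3FI-90 library, the lowest of the 6, the log2 fold change was −0.66.

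The table also held a row for Hmgn2-ps (ENSMUSG00000070713), a retrogene copy of Hmgn2 that GENCODE M21 lists under the same identifier. The coding sequences of Hmgn2 and Hmgn2-ps were identical in all 273 bases, which is why the sequence is shown.
Hmgn2 and Hmgn2-ps: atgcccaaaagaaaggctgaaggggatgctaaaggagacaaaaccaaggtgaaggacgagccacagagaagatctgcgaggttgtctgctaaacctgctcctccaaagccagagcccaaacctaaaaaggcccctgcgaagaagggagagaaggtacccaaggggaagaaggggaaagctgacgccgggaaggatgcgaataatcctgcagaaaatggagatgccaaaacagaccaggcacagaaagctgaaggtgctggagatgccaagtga
Over whole transcripts, 74.0% of the 50-base windows in the Hmgn2-ps transcript were also found in Hmgn2, and 23.8% of those in Hmgn2 transcripts were found in Hmgn2-ps. Reads that lie wholly within shared stretches cannot be assigned to 1 of the genes by sequence, so both rows are uncertain.

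The Hmgn2-ps row was at 3594, 3530 and 3478 normalized counts under DMSO and at 899, 1160 and 627 under P3FI-90. In the treated group the rows mirrored each other, since the second library was lowest for Hmgn2 and highest for Hmgn2-ps. Hmgn2-ps made up 46.0%, 68.3% and 34.5% of the pair in the 3 P3FI-90 libraries, against 71.4%, 65.0% and 63.8% under DMSO. In the P3FI-90 group the sum of both rows varied less than either row. Under DMSO it varied less than the Hmgn2 row but more than the Hmgn2-ps row, which had an SD of 58 on a mean of 3534. The sums were 5031, 5433 and 5449 under DMSO and 1955, 1698 and 1816 under P3FI-90. As a sum the pair went from 5304 ± 237 to 1823 ± 129 (SD, n = 3 each), and its log2 fold change of −1.54 (SE 0.055) was lower than the −0.93 of the Hmgn2 row.

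**Figure D2:**
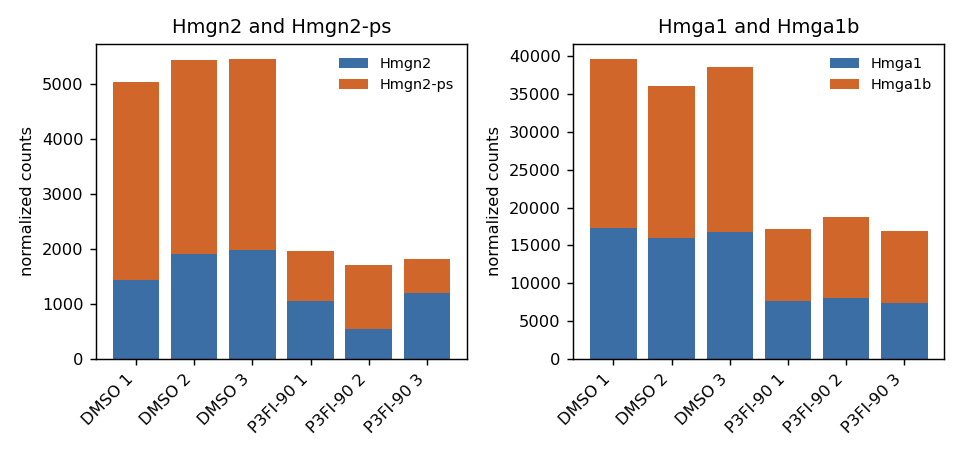
Stacked bars give normalized counts for each of the 6 libraries, with the member in blue and its copy in orange, Hmgn2 with Hmgn2-ps on the left and Hmga1 with Hmga1b on the right. The split between the parts of a bar varies in the P3FI-90 libraries for Hmgn2 (copy share 34.5% to 68.3%) and is steady for Hmga1 (55.4% to 57.0% over all 6 libraries).

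Hmgn1 changed little beside Hmgn2 and Hmgn3. Its share of the sum of Hmgn1, Hmgn2 and Hmgn3 per kilobase was 76.6%, 75.0% and 74.5% under DMSO and 83.3%, 87.5% and 83.2% under P3FI-90. With Hmgn2-ps added to the sum, the share was 59.3% ± 0.67 under DMSO and 77.9% ± 1.1 under P3FI-90 (SD, n = 3 each). The libraries of both groups were separate on either count. Hmgn5, an HMGN gene outside the members, was not part of these sums. It was at 2497.5 ± 58 normalized counts under DMSO and 1947 ± 63 under P3FI-90 (log2 fold change −0.36, SE 0.049).

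Hmga1 (ENSMUSG00000046711), the AT-hook gene common in tumor cells, was at 17361, 15925 and 16802 normalized counts under DMSO and at 7649, 8078 and 7378 under P3FI-90. The means of 16696 ± 724 and 7702 ± 353 (SD, n = 3 each) gave a log2 fold change of −1.12 (SE 0.042). Hmga2 (ENSMUSG00000056758), its embryonic paralog and a target of let-7 microRNAs, was at 7298, 7097 and 6967 under DMSO and at 4896, 4793 and 5080 under P3FI-90. It differed less, from 7121 ± 167 to 4923 ± 145 (SD, n = 3 each), with a log2 fold change of −0.53 (SE 0.036). Per kilobase the Hmga2 share of both genes was 18.7% ± 0.59 under DMSO and 25.7% ± 1.4 under P3FI-90 (SD, n = 3 each).

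Hmga1 too has a copy in the table. Hmga1b (ENSMUSG00000078249) had the same 324 coding bases as Hmga1 without a mismatch, and 89.0% of its 50-base windows lay in Hmga1 transcripts. Its row was higher than that of Hmga1, at 21390 ± 1137 normalized counts under DMSO and 9899 ± 708 under P3FI-90 (SD, n = 3 each), with a log2 fold change of −1.11 (SE 0.050). Together the rows went from 38086 ± 1854 to 17601 ± 1044 (SD, n = 3 each), a log2 fold change of −1.11 (SE 0.044), so the difference was nearly the same whether the copy is counted or not, while the level of Hmga1 itself is uncertain. With Hmga1b counted in the family, the Hmga2 share per kilobase was 8.21% ± 0.35 under DMSO and 11.8% ± 0.89 under P3FI-90 (SD, n = 3 each).

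For the remaining members, 50-base windows shared with other annotated genes made up 20.4% in Ptma, 22.7% in Hmgb1, 18.7% in Hmgb2, 25.0% in Hmgb3, 9.82% in Hmgn3, 4.33% in Hmgn1 and 2.73% in Hmga2, and none were shared in Ptms. Of the 132 other genes that shared windows with Hmgb1, 2 had a row in the table, and of the 12 that shared windows with Ptma, 0 had one. On the opposite strand, Hmgb1 overlapped exons of Uspl1 by 42 bases and Hmga1 those of AI413582 by 102 bases. Since the strand used in counting is not given in the sources used here, reads from these short overlaps cannot be told apart.

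Compared per kilobase of the principal annotated transcript, the members spanned a wide range of levels. Under DMSO, Ptma was first with 83354 ± 1619 normalized counts per kilobase (SD, n = 3), 9.76 times the level of Hmgn1, which came next with 8540 ± 197. Hmgn1, Hmga1 and Hmgb2 followed closely, and neighbours among these 3 overlapped in their libraries. Ptms, Hmgb1, Hmgb3 and Hmga2 came after them without overlap between neighbours, and Hmgn2 (1399 ± 230) and Hmgn3 (1391 ± 104) were last and overlapped. Under P3FI-90, Ptma was still first with 12849 ± 337, but only 1.69 times the level of Hmgn1 at 7618 ± 233. Hmga2 moved from place 8 to place 6 in this order and Hmgb1 from place 6 to place 8, where it overlapped with Hmgb3. With lengths taken from all annotated exons instead of 1 transcript, Ptma was again first and Hmgn1 came at place 4 under DMSO, so the middle of the order depends on the transcript lengths assumed. The copies were left out of this order. Per kilobase, Hmga1b stood at 13155 ± 699 under DMSO, above Hmgn1, and at 6088 ± 436 under P3FI-90 (SD, n = 3 each). Hmgn2-ps stood at 3071 ± 51 under DMSO and 778 ± 232 under P3FI-90. Since shared reads cannot be assigned between a gene and its copy, the places of Hmga1 and Hmgn2 are uncertain. Which member comes next after Ptma is therefore uncertain too.

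**Figure D3:**
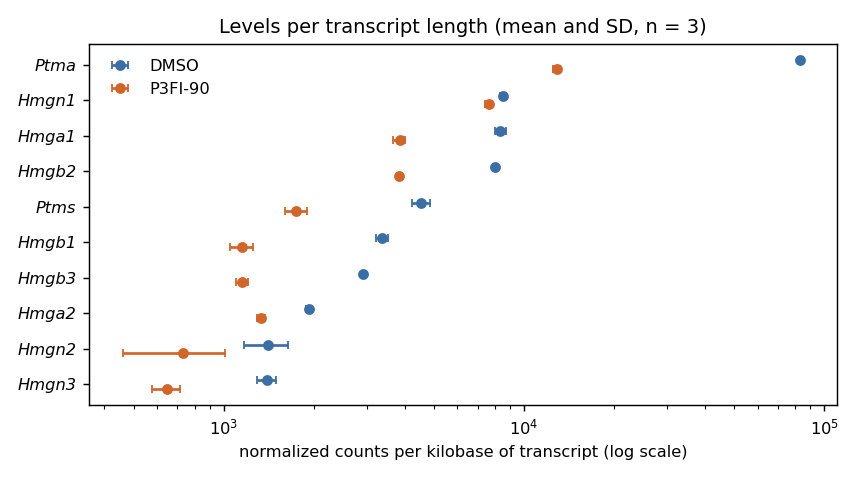
Level of each member in normalized counts per kilobase of transcript on a log axis, as mean and SD of 3 libraries, in the order of the DMSO level. Ptma lies 9.76-fold above the next member under DMSO and 1.69-fold above it under P3FI-90. The copies Hmga1b and Hmgn2-ps are left out.

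As a set, the 10 members took 0.497% ± 0.0064 of all counts on named genes under DMSO and 0.196% ± 0.0008 under P3FI-90 (SD, n = 3 each). By the adjusted p of edgeR's quasi-likelihood test under 0.05, 10 of 10 were lower and 0 higher, where 39.4% of all tested genes were lower and 39.9% higher. Scaled by total counts, 9 of the 10 were called lower, without Hmgn1. In 10 of 10 every P3FI-90 library lay below every DMSO library, as it did in 40.2% of all tested genes. The choice of the members used this same contrast, so nothing is read from these counts. The median log2 fold change was −1.11 over the members and 0.01 over all tested genes, and 7 members lay under −1. Genes with high counts were lower in general: the 614 genes in the highest 5% by DMSO level had a median of −0.58, 79.6% of them were called lower, and 4 of the members were among them. The part of this general difference in the members' values was not tested.

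**Figure D4:**
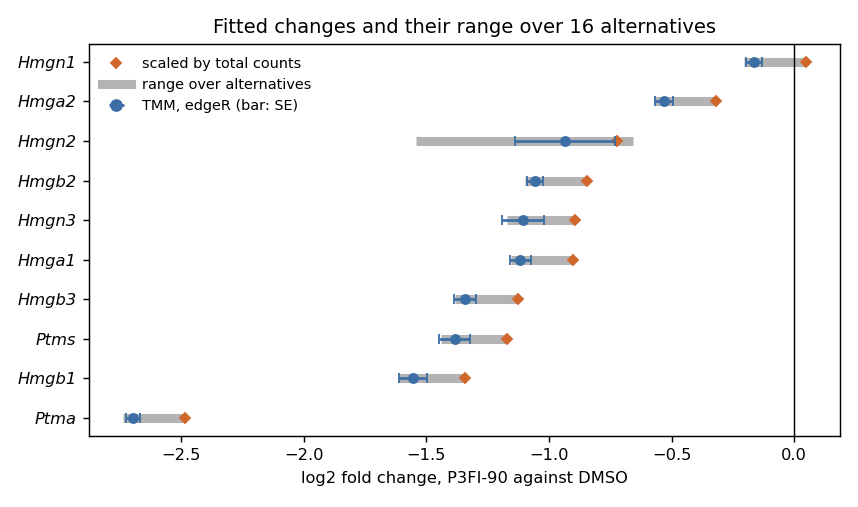
Log2 fold change of P3FI-90 against DMSO for each member, with the TMM and edgeR value and its SE in blue, the value under scaling by total counts in orange, and the range over 16 alternative settings in grey. Ptma lies apart at −2.70, Hmgn1 crosses 0 under total counts, and Hmgn2 has the widest range.

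The genes whose values over the 6 libraries were most like those of the extreme members were found by the Euclidean distance between centred log2 CPM (library-scaled counts). Nearest to Ptma were Tuba1c (distance 0.113), an α-tubulin gene, and Cbr2 (distance 0.125), a carbonyl reductase gene. Tuba1c went from 28321 to 4628 normalized counts and Cbr2 from 958 to 153. Nearest to Hmgn1 were Rrp15 (distance 0.044) and Mettl13 (distance 0.046), with log2 fold changes of −0.16 and −0.18. Both pairs of genes differed between the groups by about as much as the member they were matched to, and the distance rests on 6 libraries.

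Other genes that handle histones went in both directions. Of 30 histone chaperones and acidic chromatin proteins, all tested, 19 were lower and 10 higher, with a median log2 fold change of −0.36. Over all tested genes 39.4% were lower and 39.9% higher, shares that also belong beside the counts of the lists below. The nucleolar chaperone Npm1 was lower, from 117065 ± 4734 to 34346 ± 166 normalized counts (log2 fold change −1.77, SE 0.029), as were the nucleolin gene Ncl (−1.48, SE 0.025) and the chaperone gene Set (−1.38, SE 0.030). Ubn1, a subunit of the HIRA chaperone complex, was higher, from 1919 ± 93 to 8518 ± 158 (2.15, SE 0.042), as were Supt6 (0.79, SE 0.033), for an elongation factor that binds histones, and the co-chaperone gene Dnajc9 (0.74, SE 0.047). For each of these 6 genes the groups did not overlap.

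Other genes with an HMG box or an HMG name, among them the HMGN gene Hmgn5, likewise went in both directions. Of the 20 tested of 24, 10 were lower, 6 were higher and 4 did not pass the test, where 39.4% of all tested genes were lower and 39.9% higher, with a median log2 fold change of −0.29. The transcription factor gene Sox4 was lower, from 7473 ± 289 to 2417 ± 65 normalized counts (−1.63, SE 0.040), and so were Ubtf (−0.61, SE 0.038), which serves RNA polymerase I, and Hmgxb4 (−0.64, SE 0.051). Sox9, another SOX transcription factor gene, was higher, from 1374 ± 51 to 2507 ± 48 (0.87, SE 0.050), together with Tox4 (0.76, SE 0.040) and Hmgxb3 (0.71, SE 0.052).

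The SET complex, a group of proteins in which SET and ANP32A meet the nuclease APEX1, had 4 of 5 genes lower and 0 higher, with a median log2 fold change of −1.10. Over all tested genes 39.4% were lower and 39.9% higher. Apex1, the main endonuclease for abasic sites in DNA and a partner of HMGB2 in this complex, was at 3915, 4644 and 4289 normalized counts under DMSO and at 805, 752 and 755 under P3FI-90. This was a log2 fold change of −2.47 (SE 0.066). Of the genes the paper followed up by RT–qPCR under KDM3B inhibition, Apex1 among them, it reported a decrease for Shp1 only. Anp32a (−1.10, SE 0.034) and Set, both also counted among the chaperones above, and the nucleoside diphosphate kinase gene Nme1 (−0.99, SE 0.047) were lower too. The exonuclease gene Trex1 did not pass the test (adjusted p = 0.055 by edgeR), but did in several alternative settings. It had few counts, at 109, 31 and 35 under DMSO and 24, 46 and 30 under P3FI-90. The groups overlapped, and the first DMSO library was far above the rest. None of the settings in which Trex1 passed left that library out.

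Of 11 genes tied to the extracellular role of HMGB1, 6 had enough counts to be tested, of which 3 were lower, 1 was higher and 2 did not pass the test, with a median log2 fold change of −0.11. Cd24a, which encodes a surface protein that binds HMGB1, was lower, from 14939 ± 571 to 4663 ± 133 normalized counts (−1.68, SE 0.038), followed by the adaptor gene Myd88 (−0.62, SE 0.098) and by Tlr2 (−0.27, SE 0.092). The call of Tlr2 was lost under total counts (−0.06) and without the third DMSO or the third P3FI-90 library. Havcr2, which encodes the HMGB1-binding receptor TIM-3, was higher, at 62.7, 39.7 and 58.2 normalized counts under DMSO and 456, 346 and 389 under P3FI-90 (2.88, SE 0.19). Ager and Tlr4, for the receptors RAGE and TLR4, did not pass the test, with log2 fold changes of 0.26 (SE 0.48) and 0.04 (SE 0.065), and under total counts Tlr4 did.

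Genes whose products are tied to prothymosin α were tested in all 9 cases, of which 5 were lower and 3 higher, with a median log2 fold change of −0.26. Nfe2l2 (−0.69, SE 0.040) and Keap1 (−0.35, SE 0.053), for the stress factor NRF2 and for the KEAP1 protein that prothymosin α binds, were both lower, as was Myc (−0.45, SE 0.044), whose product is a known activator of PTMA. Crebbp, for a histone acetyltransferase that binds prothymosin α, was higher, from 766 ± 86 to 2273 ± 179 normalized counts (1.57, SE 0.080), and so was its paralog Ep300 (0.99, SE 0.043). Apaf1, for the apoptosome scaffold, was called higher by a narrow margin (0.16, SE 0.065), and this call was lost in several alternative settings. Under total counts Casp9 (−0.12) and Lgmn (−0.05) lost their lower calls and Cycs (0.27) was called higher, so the split of this list depends on the scaling.

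Hmga2 is repressed by let-7 microRNAs, and 6 of 8 genes of that route were tested, 4 higher and 2 lower. Ago2, for the Argonaute protein that carries microRNAs, was higher, from 8791 ± 138 to 15572 ± 247 normalized counts (0.82, SE 0.031), with smaller rises in Igf2bp2 (0.27, SE 0.034) and Dicer1 (0.20, SE 0.046). Lin28b, for the protein that blocks let-7 maturation, was called higher on very few reads, with 6, 0 and 0 counts under DMSO and 21, 12 and 16 under P3FI-90. Igf2bp1 (−0.37, SE 0.050) and Trim71 (−1.22, SE 0.29) were lower. The let-7 microRNAs themselves were not measured.

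**Figure D5:**
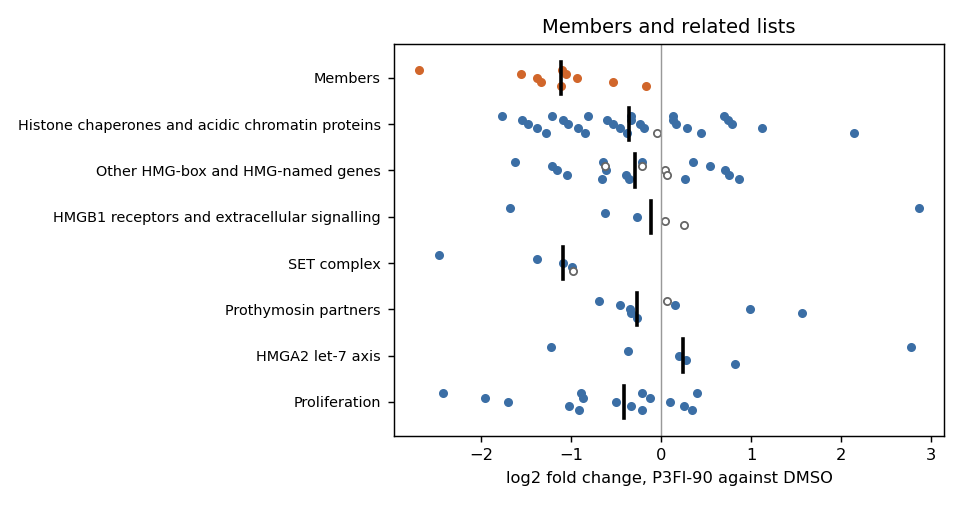
Log2 fold change of P3FI-90 against DMSO for the 10 members (orange) and for the tested genes of 7 related lists (blue), where open circles are genes that did not pass an adjusted p of 0.05 and black bars are medians. The list medians range from −1.10 for the SET complex to 0.24 for the let-7 genes, against −1.11 for the members.

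Several members are known to be high in dividing cells, so a list of proliferation genes was read beside them. Of 16 such genes, 12 were lower and 4 higher, with a median log2 fold change of −0.42 and a range from −2.42 to 0.40. Among all tested genes 39.4% were lower and 39.9% higher. Under scaling by total counts Aurka (0.0049) and Birc5 (−0.0032) lost their lower calls, and Aurkb (0.095) was called higher. Among the chaperones Hira (0.027) and Asf1b (−0.025) lost their calls and Atrx (0.17) was called higher. Among the HMG-box genes Hmg20b (0.0012) lost its call, and Cic (0.26) and Hbp1 (0.28) were called higher. These genes were named after their values were seen. The part of the proliferation genes in the members' values was not tested. In its cell assays, the paper reported no effect of P3FI-90 on proliferation or colony formation of the tumor cells. RNA from bulk cultures cannot separate fewer cells of a kind from less RNA per cell.

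The libraries held 31327094 to 37395732 counts on named genes, and the TMM factors were 0.928 ± 0.0015 for DMSO and 1.08 ± 0.0011 for P3FI-90 (SD, n = 3 each). Scaling by total counts raised the median log2 fold change of all genes by 0.21 and turned the split of 4908 higher and 4841 lower genes into 6177 higher and 3641 lower. All 8 markers of mammary epithelium were called lower under TMM scaling, against 39.4% of all tested genes. Their log2 fold changes ranged from −2.33 to −0.25, and their calls under other scalings were not examined. Their summed levels were 4243 to 4471 CPM under DMSO and 2098 to 2193 under P3FI-90. Of 6 leukocyte markers 2 could be tested and neither passed, with sums of 9.76 to 11.5 and 8.58 to 12.4 CPM, and Adgre1 was at 0 in every library. Of 5 endothelial and fibroblast markers 3 were tested, 1 higher and 1 lower, with sums of 37.7 to 38.1 and 30.4 to 33.6 CPM. The part of these markers in the members' values was not tested.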

How the data were processed

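Total RNA of 4T1 cells was made into libraries with an Illumina mRNA–Seq kit and sequenced on a NovaSeq instrument. The authors deposited raw read counts per gene with no normalization, and their processing notes name CASAVA, HISAT2, StringTie and the build GRCm39. The counting tool and strandedness are not given in the sources used here. The authors tested these data with limma.

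The 285 rows of assembled transcripts were left out, which left 22116 named genes. In R 4.3.3 the counts were filtered with filterByExpr, scaled by TMM and compared with edgeR 4.0.16 (quasi-likelihood test, Benjamini-Hochberg over 12288 genes, no block). The common biological coefficient of variation was 0.0648. The fitting code was tested on simulated data. Alternatives were other scalings and filters, DESeq2 1.42.0, limma-voom (limma 3.58.1), a block for replicate number, and leaving out single libraries. Adding the copies to Hmga1 and Hmgn2 and keeping assembled transcripts were chosen after seeing the data.

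Members and lists were chosen with earlier results of these data known. The text names all 10 members, copies named after a member, up to 3 genes of smallest p per direction in each related list, and the 2 genes nearest to the extreme members. Proliferation genes are given by range. Lin28b, Hmgn5, genes named for a change under an alternative setting and genes named for not passing the test lie outside this rule. They were chosen after their values were seen. Transcripts came from GENCODE M21 and promoters from RefSeq, both on GRCm38, so no coordinates of the authors' build are given. Levels per kilobase used the APPRIS principal transcript. Counting error is small for the members, each with at least 567 counts per library, and large for genes with few counts, such as Lin28b.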

Additional observations from a re-analysis of the deposited data

How the results depend on the processing

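Under the 16 alternatives, the counts of called genes stayed within 1.5 times the reported ones: 9249 to 9899 of all genes, 9 or 10 members and 76 to 81 genes of the related lists, where the reported counts were 9749, 10 and 81. The split by direction moved more: under total counts 34 list genes were higher and 44 lower, where 28 higher and 53 lower were reported. Hmgn1 was the one member whose direction turned, to 0.049 on the log2 scale (adjusted p = 0.176 by edgeR) under scaling by total counts. Hmgn2 ranged from −1.54 with its copy added to −0.66 without the second P3FI-90 library. The log2 fold change of Ptma ranged from −2.74 to −2.48. With 1 library left out, 9445 to 9708 genes, 10 members and 76 to 80 list genes were called. The replicate number was shared by both groups, but equally numbered libraries did not deviate together (correlations of −0.021, 0.015 and 0.0049 for numbers 1, 2 and 3). With the replicate block 9524 genes, 10 members and 79 list genes were called. The data hold 1 cell line, dose and time, and RNA levels only.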
